A study of Mus musculus with 47 samples.

Results

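Secondary (specific) and tertiary (gelatinase) granules of neutrophils hold most of the proteins encoded by the 10 genes described here, while 3 of the genes encode proteins of the cytosol or the surface. The genes were followed through liver, lung and brain of mouse embryos with point mutations in Daxx. They were taken from the count table by their symbols, Ltf, Camp, Ngp, Lcn2, Mmp8, Mmp9, Chil3, Ltb4r1, S100a8 and S100a9, which gave 10 of the 20456 genes listed. All 10 passed the filter on low counts, which left 16892 genes to test. The choice of genes used no measured value, but it was made with earlier results of these data known.

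Embryos homozygous for 1 of 2 germline knock-in alleles were collected at E18.5 together with wild-type littermates. The strain is labelled C57BL/6, and per the study's methods the alleles were made in C57BL/6N zygotes and the founders were then bred to C57BL/6J. Per the study, S226A abolishes the binding of Daxx to the histone variant H3.3, and Y130A abolishes its binding to Atrx. This was shown by co-immunoprecipitation from cells that overexpressed the proteins, and a faint ATRX band remained in some replicates. The study also found less Daxx protein in S226A and more in Y130A than in wild type, most clearly in embryonic fibroblasts. Allele and protein level thus cannot be told apart here. RNA of whole liver, lung and brain gave 47 libraries in 12 groups, each with 1 library from each of 4 litters, and 3 libraries where wild-type lung was paired with Y130A. The alleles were present in every cell of the embryo, and the tissues were sequenced whole, so that in these bulk samples more cells of a type and more RNA per cell cannot be told apart.

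Neutrophils store antimicrobial proteins and proteases in granules that are filled 1 kind after another as the cell matures: primary granules in promyelocytes, secondary granules in myelocytes and metamyelocytes, and tertiary granules in band cells. Transcription of secondary and tertiary granule genes therefore marks late stages of granulocyte maturation, and C/EBP epsilon, the product of Cebpe, is the transcription factor best known for driving it. In the mouse, the fetal liver is a main site of blood formation before birth, while neutrophils reach lung and brain with the blood.

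Total counts ranged from 15722147 to 26190403 reads per library in the S226A litters and from 36351738 to 54885020 in the Y130A litters. The summed level of 6 hepatocyte markers was 142200 to 209200 CPM (TMM-scaled read counts relative to library size) in the livers, that of 6 lung epithelium markers 6212 to 10550 in the lungs, and that of 6 neuron markers 5626 to 6856 in the brains, so that each tissue carried the markers of its label. In 2 livers, 10 genes of squamous epithelium summed to 1248 CPM (wild type, litter 2881) and 811.8 CPM (Y130A, litter 2848) against at most 11.23 in any other liver, and the counts of called genes in S226A liver, and in the differences that use these livers, were also made without them. Daxx itself lay between 27.17 and 50.88 CPM in all libraries, which checks neither the point mutations nor the level of Daxx protein. A gene was called changed by the criteria of the study's methods: an adjusted p below 0.01, a log2 fold change beyond 1 and a standard error below 1.

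The 10 genes lie on 4 chromosomes (GRCm38). Ltf (chr9:111019271-111042767, plus strand), Camp (chr9:109847379-109849617, minus strand) and Ngp (chr9:110419747-110423012, plus strand) share a stretch of 1195 kb on chromosome 9, with gaps of 570 kb between Camp and Ngp and 596 kb between Ngp and Ltf, and Mmp8 (chr9:7558456-7568485, plus strand) lies far from them on the same chromosome. S100a8 (chr3:90668978-90670035, plus strand) and S100a9 (chr3:90692632-90695721, minus strand) are 22.6 kb apart, and Chil3 (chr3:106147554-106167564, minus strand) is on the same chromosome. Lcn2 (chr2:32384633-32388252, minus strand) and Mmp9 (chr2:164940780-164955850, plus strand) are on chromosome 2, and Ltb4r1 (chr14:55765962-55768494, plus strand) is on chromosome 14. All are protein coding, and no exon of another annotated gene overlapped theirs.

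Since most of these genes moved together in liver, the 250 bases before their RefSeq start sites (GRCm38.p6), available for 9 of them, were searched on both strands for motifs of granulocyte transcription factors. The C/EBP motif TTGCNNAA matched in 5 of 9 (Ltf, Ngp, Lcn2, Mmp8 and S100a9), and 9.56% of 32851 RefSeq promoters of the same length held a match. The looser form TTNNGNAA, which includes every match of the first, was found in 7 of 9 against 36.8% of promoters. The PU.1 motif GAGGAA was found in 5 of 9 (Lcn2, S100a8, Mmp8, Ltf and Ltb4r1) against 23.3%. A match is a run of letters and was not shown to be bound. Of the 5 genes with TTGCNNAA, Ltf, Ngp, Mmp8 and S100a9 are shown, because they show how its place differs. Each is printed 5′ to 3′ on its own strand, with the match in capitals. The stretch ends before the RefSeq start or the first annotated transcript, whichever comes first. In Mmp8 the match begins 19 bases before the RefSeq start, in Ltf 75 and in S100a9 236. The Ltf match lies on the opposite strand, so that its capitals read as the reverse complement of the motif. Ngp alone of these 4 has 2 matches. The one shown begins 138 bases before the RefSeq start, and the other, which begins 11 bases before it, lies inside the annotated transcript and so beyond the stretch shown. They cover chr9:111019042-111019270 (Ltf, plus strand), chr9:110419558-110419746 (Ngp, plus strand), chr9:7558179-7558428 (Mmp8, plus strand) and chr3:90695722-90695971 (S100a9, minus strand).
Ltf: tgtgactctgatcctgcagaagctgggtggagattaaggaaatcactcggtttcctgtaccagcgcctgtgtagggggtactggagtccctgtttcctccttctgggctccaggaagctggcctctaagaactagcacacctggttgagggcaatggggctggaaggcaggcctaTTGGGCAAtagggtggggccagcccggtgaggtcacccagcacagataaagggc
Ngp: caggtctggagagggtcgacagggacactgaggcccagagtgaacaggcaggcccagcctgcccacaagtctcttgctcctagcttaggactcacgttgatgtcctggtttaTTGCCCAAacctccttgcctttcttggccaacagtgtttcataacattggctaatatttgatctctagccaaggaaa
Mmp8: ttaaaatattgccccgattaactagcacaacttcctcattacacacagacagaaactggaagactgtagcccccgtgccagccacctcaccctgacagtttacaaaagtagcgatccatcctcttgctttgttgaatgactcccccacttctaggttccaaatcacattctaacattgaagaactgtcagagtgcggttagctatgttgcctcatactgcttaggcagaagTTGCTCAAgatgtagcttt
S100a9: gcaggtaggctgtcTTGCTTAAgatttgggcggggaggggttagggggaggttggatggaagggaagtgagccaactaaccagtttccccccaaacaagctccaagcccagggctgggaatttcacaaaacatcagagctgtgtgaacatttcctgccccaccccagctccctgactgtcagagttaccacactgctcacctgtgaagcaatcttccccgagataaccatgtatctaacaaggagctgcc

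In wild-type embryos all 10 genes were highest in liver. Per kilobase of exon, which allows genes to be compared, S100a9 led in wild-type liver with 2131 ± 266 CPM per kb (SD, n = 8), followed by its partner S100a8 with 701 ± 193. These proteins form calprotectin, a heterodimer of the neutrophil cytosol that binds zinc and calcium. Of the secondary granule proteins, Ngp, a granule protein related to cystatins, had 458 ± 51.6 CPM per kb, Camp, the antimicrobial cathelicidin, 302 ± 30.0, and the iron-binding lactoferrin Ltf 241 ± 25.1. Chil3, a chitinase-like protein of myeloid cells, had 91.2 ± 21.4, and Lcn2, the lipocalin that captures bacterial siderophores, had 86.7 ± 11.9, so that these neighbours in the order differed by less than the spread between libraries. The collagenase Mmp8 had 35.1 ± 6.41, the gelatinase of tertiary granules Mmp9 22.2 ± 3.38, and Ltb4r1, a surface receptor for leukotriene B4, 7.56 ± 1.73.

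**Figure D1:**
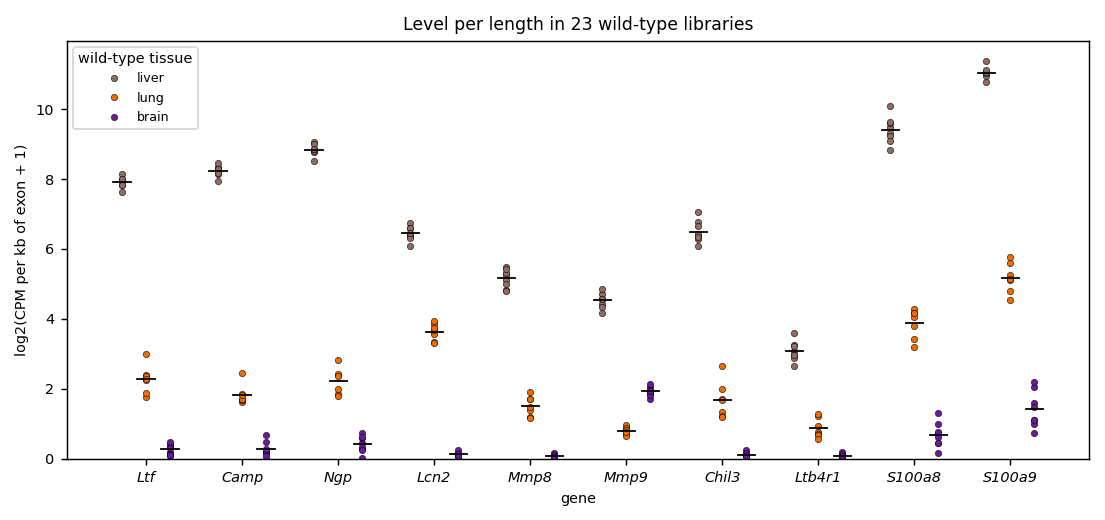
Level of each of the 10 genes in the wild-type libraries of liver (n = 8), lung (n = 7) and brain (n = 8), as log2(CPM per kilobase of exon + 1), with a point per library and a line at the mean. S100a9 is highest in liver and lung, while Mmp9 leads in brain.

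In wild-type lung the levels were far lower and the order was partly different. S100a9 had 36.6 ± 11.1 CPM per kb (n = 7) and S100a8 14.1 ± 3.90, and Lcn2 came next with 11.5 ± 2.04, within the spread of S100a8. Ltf, Ngp, Camp, Chil3 and Mmp8 followed between 4.01 ± 1.50 and 1.87 ± 0.564, each within the spread of its neighbour, and Ltb4r1 (0.865 ± 0.384) and Mmp9 (0.743 ± 0.126) came last. In wild-type brain, Mmp9 was highest with 2.80 ± 0.354 (n = 8) and S100a9 had 1.81 ± 1.06. S100a8 had 0.650 ± 0.427, and the other 7 genes had at most 0.342. Of these 8 brains, 6 had at most 3 reads of Ltb4r1, and 4 had at most 3 reads of Camp and of Mmp8, so that brain levels of these genes rest on a handful of reads.

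Between wild-type tissues, all 10 genes were called higher in liver than in lung (18.9% of all genes tested were) and all 10 higher in liver than in brain (26.9%). The differences from lung ranged from 2.92 for Lcn2 to 6.90 for Ngp on the log2 scale, and those from brain from 3.00 for Mmp9 to 10.49 for Camp. Lung was above brain in 9 genes (25.7% of all genes tested), up to 7.00 for Lcn2, while Mmp9 was called lower in lung than in brain by 1.93 (23.1% were lower; edgeR, adjusted p = 2.60e-15). Lcn2 and Mmp9 thus had the smallest differences of liver from lung and from brain, respectively. The 3 comparisons use the same wild-type libraries.

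In S226A liver, 9 of the 10 genes were higher than in the wild-type littermates by the criteria, with log2 fold changes from 1.20 to 1.78, while 1.26% of all genes tested were called higher. Ltb4r1, at 0.99, lay just under the limit. At an adjusted p below 0.05 alone, all 10 were higher (6.14% of all genes), and in all 10 every S226A liver lay above every wild-type liver of these litters (6.7% of all genes). The median log2 fold change was 1.32, against -0.01 over all genes tested. The 10 genes summed to 9197 ± 399 CPM in S226A liver and 3476 ± 351 in the wild-type livers (n = 4 each).

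Of the secondary granule proteins, Ltf, which withholds iron from microbes, had 838, 877, 680 and 778 CPM in the wild-type livers of litters 2972, 2881, 2875 and 2970, and 2228, 1929, 2113 and 2215 CPM in their S226A littermates. Every S226A liver lay far above the wild-type range, and Ltf rose by 1.42 ± 0.28 (log2 fold change ± SE; edgeR, adjusted p = 0.000281). Camp had 214, 235, 187 and 244 CPM in wild type and 569, 590, 564 and 552 CPM in S226A. The S226A livers were closer to each other than the wild-type livers were, and the log2 fold change was 1.37 ± 0.20 (adjusted p = 1.85e-06). Ngp had 548, 529, 447 and 543 CPM in wild type and 1360, 1124, 1259 and 1268 CPM in S226A, again without overlap (1.28 ± 0.23, adjusted p = 9.72e-05). Lcn2, which starves bacteria of iron by binding their siderophores, had 219, 214, 177 and 205 CPM in wild type and 569, 575, 598 and 550 CPM in S226A. With a log2 fold change of 1.49 ± 0.13, Lcn2 had the smallest standard error of the 10 genes (adjusted p = 1.38e-11).

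The metalloproteinases of the granules moved alike. Mmp8, the collagenase of secondary granules, had 89.7, 93.0, 66.9 and 65.2 CPM in the wild-type livers, in the same order of litters, and 194, 169, 194 and 165 CPM in S226A (1.20 ± 0.18, adjusted p = 5.18e-06). Mmp9, the gelatinase that gives the tertiary granules their other name, had 80.0, 80.2, 71.6 and 68.5 CPM in wild type and 194, 166, 190 and 178 CPM in S226A (1.28 ± 0.17, adjusted p = 5.87e-07). Neither gene had an S226A liver within the wild-type range.

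Chil3 had the largest change of the 10 genes, 1.78 ± 0.26 or 3.44-fold (adjusted p = 1.97e-06), with 216, 134, 108 and 177 CPM in wild type and 713, 427, 509 and 539 CPM in S226A. Its near-identical neighbour Chil4, with which it could exchange reads, had at most 0.796 CPM in any liver. Of the calprotectin subunits, S100a9 had 1093, 1090, 913 and 1021 CPM in wild type and 2954, 2890, 2879 and 2578 CPM in S226A (1.46 ± 0.23, adjusted p = 1.01e-05). S100a8 had 442, 420, 315 and 376 CPM in wild type and 936, 1183, 844 and 728 CPM in S226A (1.25 ± 0.20, adjusted p = 1.80e-05). Both subunits were thus higher in every S226A liver, and S100a8 was the more variable of them.

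Ltb4r1, the high-affinity leukotriene B4 receptor through which neutrophils are attracted, is no granule protein. It had 15.4, 10.4, 11.8 and 11.5 CPM in wild type and 26.9, 22.9, 24.4 and 23.4 CPM in S226A. The groups did not overlap, but the log2 fold change of 0.99 ± 0.28 (adjusted p = 0.0159) passed neither the limit on size nor that on p.

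**Figure D2:**
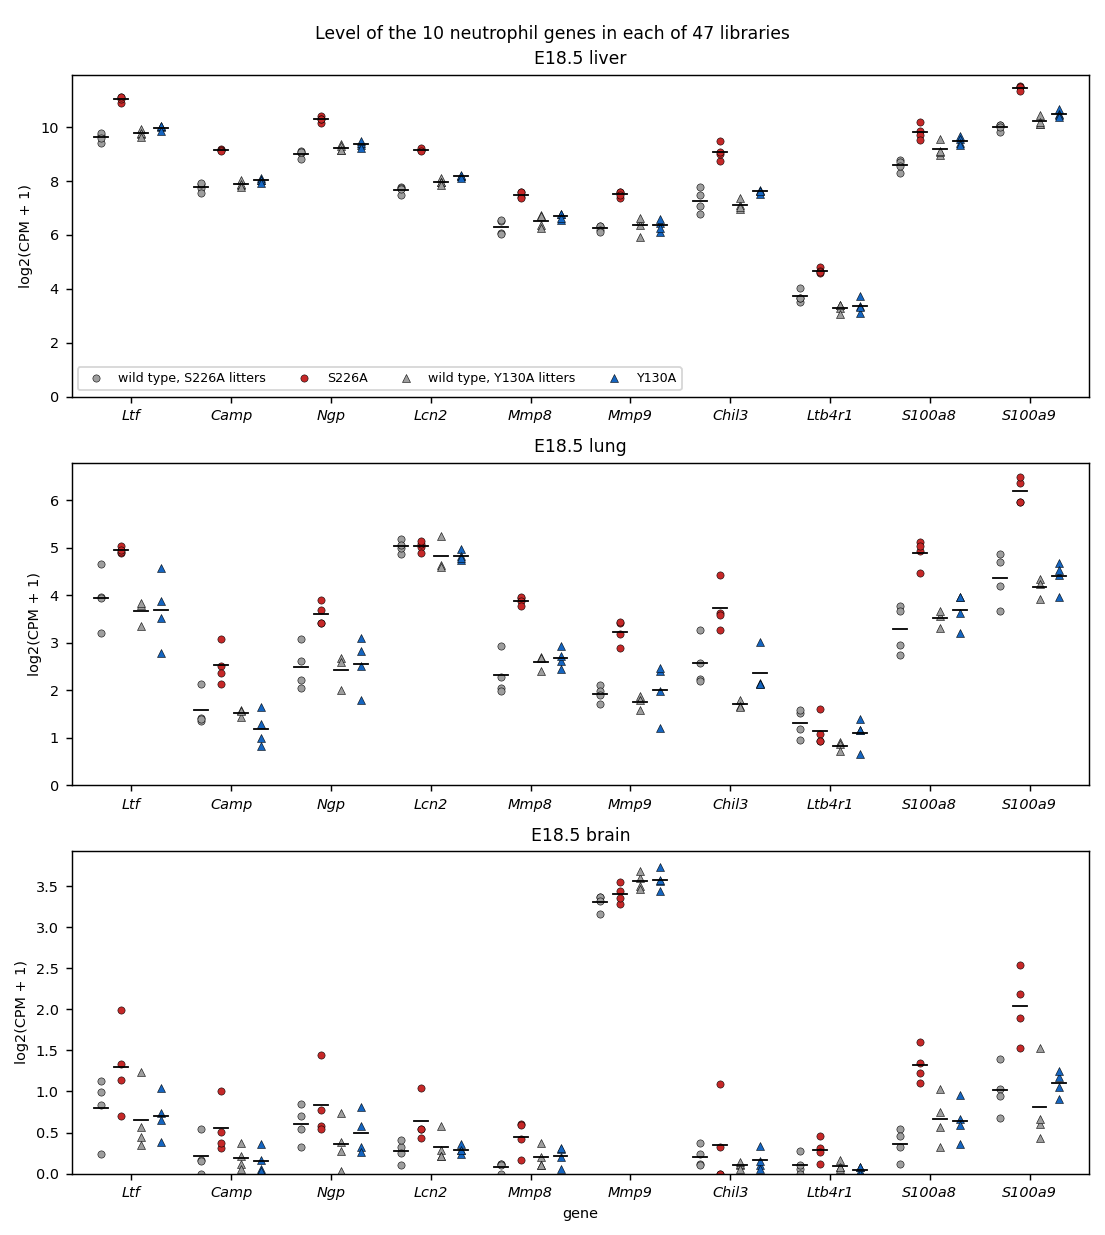
Level of the 10 genes in every library, as log2(CPM + 1), in panels for liver, lung and brain, with S226A, Y130A and the wild-type littermates of each as separate groups and a line at each group's mean. In liver the S226A points lie above all wild-type points of their litters for all 10 genes.

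The count of 9 called genes stayed at 9 whichever library was left out, and without the 2 livers with squamous transcripts. DESeq2 called 8, since Ngp had an adjusted p of 0.0193 there, and a fit of only the livers compared called all 10, with Ltb4r1 at 1.00 (adjusted p = 0.000478). In each of the 4 litters, the S226A liver was above its wild-type littermate for all 10 genes, by 0.769 (Ltb4r1) to 2.22 (Chil3) on the scale of log2(CPM + 1). These are 4 pairs of livers, whose genes are not replicates, and the count was not made over all genes.

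**Figure D3:**
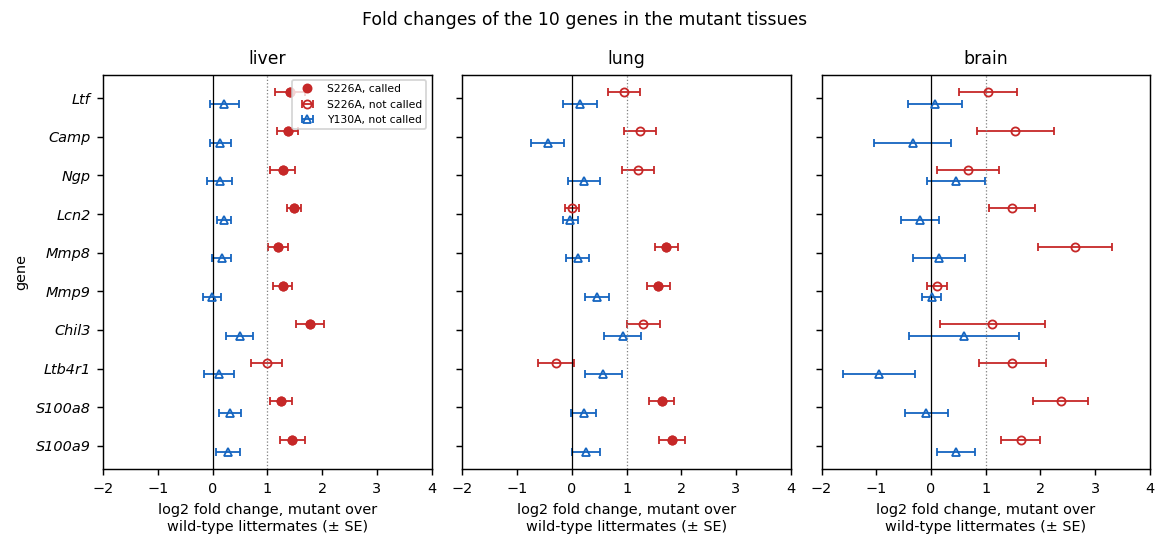
Log2 fold change (± SE) of the 10 genes in S226A (circles, filled where called) and Y130A (triangles) against the wild-type littermates in liver, lung and brain, with a dotted line at a log2 fold change of 1. S226A values in liver lie between 0.99 and 1.78, and Y130A values there between -0.01 and 0.49.

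The makeup of the set hardly moved in liver: S100a9 made up 55.1% of the summed level per kilobase in S226A and 53.2% in wild type. Across the 16 livers of both sets, the log2(CPM + 1) of each gene followed the mean of the other 9 with Pearson's r from 0.762 (S100a8) to 0.994 (Ltf), a description over livers that share litters and genotypes. The 8 other genes whose level most resembled the mean of the 10 over these livers were Abca13 (r = 0.989), Fcnb (0.984), Myo1f (0.982), Ncf1 (0.982), Cybb (0.981), Cd177 (0.981), Lyz2 (0.981) and Coro1a (0.980). Fcnb, Cybb, Cd177 and Lyz2 are themselves genes of granule proteins, and Ncf1 encodes a cytosolic subunit of the neutrophil NADPH oxidase. Abca13 had 259 CPM in S226A liver against 92.5 in wild type (means, n = 4 each), and Ncf1 had 277 against 111.

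Other genes of the neutrophil were higher in S226A liver as well. Of 14 further genes of secondary, tertiary and secretory granules, 10 were called higher and 0 lower, with a median log2 fold change of 1.10. Fcnb, a ficolin that recognizes microbial sugars, rose by 1.65, the lysozyme gene Lyz2 by 1.48, the surface protein gene Cd177 by 1.33, and Pglyrp1, which binds peptidoglycan, by 1.29. All 5 genes of primary granules and promyelocytes were called higher (median 1.50): Ctsg, which encodes cathepsin G, rose by 1.70, the myeloperoxidase gene Mpo by 1.52, Ms4a3 by 1.50 and the elastase gene Elane by 1.49. Mpo had 347, 326, 347 and 376 CPM in the wild-type livers and 1045, 802, 1061 and 1103 CPM in S226A. Early and late granule genes were therefore higher together, with medians of 1.50 and 1.32.

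Of 8 neutrophil surface and maturation genes, 5 were called higher (median 1.28). Among them were Fpr2, a receptor for formylated peptides (1.45), Csf3r, the receptor for granulocyte colony-stimulating factor (1.34), and Retnlg (1.33). Ly6g, the classical surface marker, belongs to a family of related genes and had a log2 fold change of 1.32 that was not called (adjusted p = 0.122). Of 6 genes of transcription factors that act on granule genes, 2 were called higher, Cebpe by 1.62 (adjusted p = 0.000129) and Gfi1, a repressor needed for neutrophil formation, by 1.28 (adjusted p = 0.00635). Cebpe had 7.62, 11.8, 12.6 and 11.2 CPM in the wild-type livers and 35.4, 28.4, 36.8 and 32.3 CPM in S226A, without overlap. Spi1, which encodes PU.1, had a log2 fold change of 0.88 (adjusted p = 0.00021) and Cebpd one of 0.41 (adjusted p = 0.356), neither of them called.

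Of 13 genes of inhibitors, receptors and enzymes that act with the products of the 10 genes, 2 were called higher and the median was 0.09. Both belong to the synthesis of leukotriene B4, the ligand of Ltb4r1: Alox5ap, which presents the substrate to 5-lipoxygenase, rose by 1.30 and Alox5, the lipoxygenase itself, by 1.19. Lta4h, which makes leukotriene B4 in the last step, had a log2 fold change of 0.69 (adjusted p = 1.30e-08), under the limit on size, and Timp1, an inhibitor of Mmp9, had 0.84 (adjusted p = 0.259). Of 5 tested genes of neutrophil release and homing, 0 were called (3 had an unadjusted p below 0.05, as 24.7% of all genes had), and 3 were positive. The retention receptor Cxcr4 had a log2 fold change of 0.93 (adjusted p = 2.10e-08) and the chemokine Cxcl1 one of 1.19 (adjusted p = 0.163). Cxcl2 had one of -0.73 (adjusted p = 0.729), and Cxcl12, the ligand of Cxcr4, one of -0.28 (adjusted p = 0.169). Every S226A liver lay below every wild-type liver for Cxcl12, as in 5.18% of all genes. Without the livers with squamous transcripts, 2 of the 5 genes did not overlap in the higher direction and 1 in the lower.

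Markers of other cells were read beside these changes. Of 5 monocyte genes, 2 were called higher in S226A liver, Ly6c2 by 1.46 (which has a near-identical gene in the Ly6 family) and F13a1 by 1.25. Of the 5, 3 were positive, and the median was 0.02, with Ccr2 at 0.02 (adjusted p = 1.00) and Ms4a6c at -0.29 (adjusted p = 0.537). Of 9 macrophage genes, 8 were called lower (0.847% of all genes were) and 0 higher (median -2.18), and their summed level was 208.2 to 340.7 CPM in S226A against 867.3 to 1060 CPM in wild type. The complement gene C1qa fell by 3.26 and C1qc by 2.79, Clec4f, a marker of Kupffer cells, fell by 8.42, and Vsig4, another of their markers, had 0 reads in all S226A livers. The monocyte genes summed to 263.9 to 289.1 CPM in S226A against 118.8 to 137.7 CPM in wild type, most of it from the 2 called genes: F13a1 had a mean of 159 CPM in S226A and 66.6 in wild type and Ly6c2 96.4 and 35.1 (n = 4 each).

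Of the 6 hepatocyte markers 0 were called (0 at an unadjusted p below 0.05), but their summed level was lower in every S226A liver, at 142200 to 165200 CPM, than in any wild-type liver of these litters, at 168700 to 172600 CPM, and 2 of the 6 did not overlap in the lower direction (5.18% of all genes did not). Of the 6 erythroid markers 0 were called (0 at an unadjusted p below 0.05) and 2 did not overlap in the lower direction, while their sums overlapped, at 11610 to 13500 CPM in S226A and 11690 to 15570 CPM in wild type. Of 8 eosinophil and mast cell genes 0 were called (1 at an unadjusted p below 0.05). Of 4 tested acute phase genes 1 was called higher, Saa3 by 1.40 (adjusted p = 0.0043), while Orm1 had a log2 fold change of 1.44 (adjusted p = 0.155), and the list summed to 613.6 to 739.5 CPM in S226A against 486.4 to 607.1 CPM. The part of these cells in the change of the 10 genes was not tested.

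Without the 2 livers with squamous transcripts, 10 of 14 further granule genes and 5 of 5 primary granule genes were called higher in S226A liver. So were 4 of 8 neutrophil surface and maturation genes and 2 of 6 transcription factor genes. The same held for 2 of 13 partners and 2 of 5 monocyte genes, while 7 of 9 macrophage genes were called lower.

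**Figure D4:**
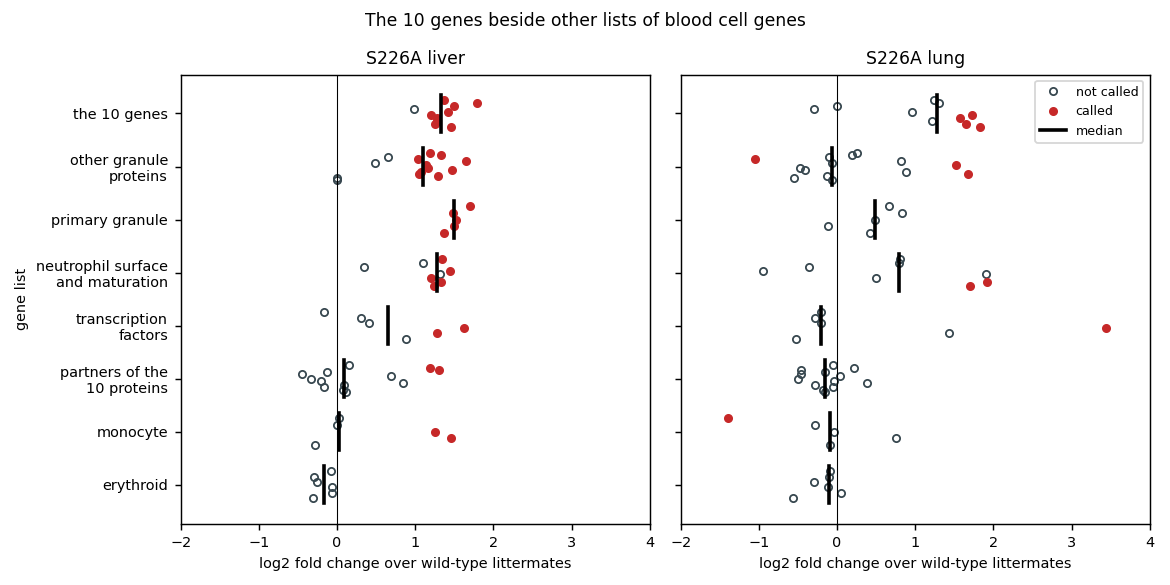
Log2 fold change of each gene in 8 lists in S226A liver and S226A lung against wild-type littermates, with filled points for called genes and a line at each list's median. The 10 genes and the lists of further granule, primary granule, and neutrophil surface and maturation genes have medians above 1 in liver, while in lung the primary granule genes have a median of 0.49.

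In S226A lung, 4 of the 10 genes were called higher, while 0.148% of all genes tested were, and 7 were higher at an adjusted p below 0.05 alone (0.852%). In 7 genes the S226A lungs all lay above the wild-type lungs of these litters (2.09% of all genes), and the median log2 fold change was 1.27. The summed level of the 10 genes was 217 ± 24.9 CPM in S226A and 97.4 ± 21.0 in wild type (n = 4 each).

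S100a9 had 24.9, 28.2, 17.4 and 11.7 CPM in the wild-type lungs of litters 2972, 2881, 2875 and 2970 and 81.5, 89.1, 61.5 and 61.8 CPM in S226A. Its log2 fold change of 1.83 ± 0.24 was the largest of the 10 genes in lung (adjusted p = 3.90e-06). S100a8 had 12.7, 11.7, 5.71 and 6.74 CPM in wild type and 29.6, 33.7, 31.8 and 21.1 CPM in S226A (1.65 ± 0.23, adjusted p = 1.08e-05). Both calprotectin subunits thus separated the groups in lung as in liver. Mmp8 had 6.66, 3.86, 3.11 and 2.96 CPM in wild type and 14.4, 14.5, 13.6 and 12.7 CPM in S226A (1.73 ± 0.21, adjusted p = 1.03e-06). Mmp9 had 3.33, 2.97, 2.25 and 2.74 CPM in wild type and 9.61, 8.11, 9.78 and 6.36 CPM in S226A (1.58 ± 0.21, adjusted p = 5.55e-06). The proteases of both granule types were therefore higher in every S226A lung than in any wild-type lung of these litters.

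Chil3 had 8.63, 3.69, 4.91 and 3.56 CPM in wild type and 20.6, 8.67, 11.3 and 10.9 CPM in S226A. Litter 2972 held the highest value of both groups, and the log2 fold change was 1.31 ± 0.31 (adjusted p = 0.0156). Ngp had 5.16, 7.42, 3.16 and 3.62 CPM in wild type and 9.69, 14.0, 11.9 and 9.71 CPM in S226A (1.21, adjusted p = 0.0165). Camp had 1.55, 3.37, 1.65 and 1.64 CPM in wild type and 4.70, 7.50, 3.35 and 4.17 CPM in S226A (1.24, adjusted p = 0.0177), and its wild-type lung of litter 2881 lay within the S226A range. Ltf had 14.7, 24.1, 14.3 and 8.22 CPM in wild type and 28.5, 31.9, 29.2 and 29.8 CPM in S226A (0.95, adjusted p = 0.0808). None of these 4 genes was called, and the wild-type lung of litter 2881 was the highest of its group for Camp, Ngp and Ltf.

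Lcn2 and Ltb4r1 did not pass the test in lung. Lcn2 had 28.2, 35.1, 31.1 and 32.4 CPM in wild type and 31.3, 32.8, 34.3 and 28.8 CPM in S226A, an overlap of nearly the whole range (0.00 ± 0.13, adjusted p = 1). Ltb4r1 had 1.88, 0.944, 2.00 and 1.26 CPM in wild type and 0.907, 2.05, 1.12 and 0.909 CPM in S226A (-0.29, adjusted p = 0.745). The makeup of the set differed accordingly: the share of S100a9 in the summed level per kilobase was 59.4% ± 3.22 in S226A lung and 46.8% ± 5.10 in wild type, and that of Lcn2 was 5.21% ± 0.748 and 15.6% ± 4.84 (n = 4 each).

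The number called in S226A lung depended on the fit. With litter as a block, 6 genes were called, adding Chil3 (adjusted p = 0.00152) and Ngp (adjusted p = 0.00391), whereas a fit of only the lung libraries compared called 0, with adjusted p from 0.0128 to 0.0258 for the 4 genes (in the fit of all libraries 8 genes had an unadjusted p below 0.05, as did 16.2% of all genes). Without the wild-type lung of litter 2881, 7 genes were called, the additions being Camp (adjusted p = 0.0021), Ltf (0.00944) and Ngp (0.00248). Chil3 was called without the wild-type lung of litter 2972 (adjusted p = 0.0024), and Camp without the S226A lung of litter 2875 (0.00839). The S226A lung was above its wild-type littermate for 9, 9, 8 and 9 of the 10 genes in litters 2875, 2881, 2970 and 2972, a count not made over all genes.

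**Figure D5:**
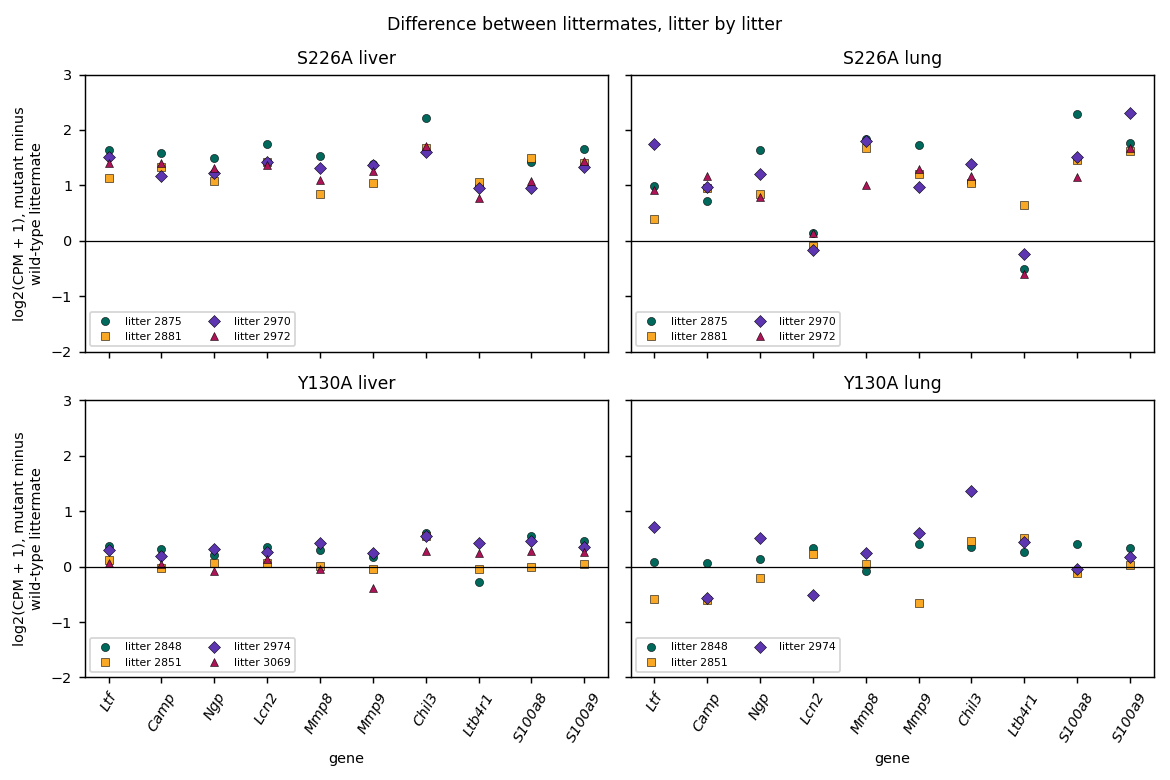
Difference between mutant and wild-type littermate on the scale of log2(CPM + 1) for each of the 10 genes, with a point per litter, for S226A and Y130A in liver and lung. All 40 S226A liver points lie above 0, as do 35 of 40 S226A lung points, 32 of 40 Y130A liver points and 21 of 30 Y130A lung points. The points of a litter come from the same pair of libraries and are not replicates.

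Of the other neutrophil lists in S226A lung, 0 of 5 primary granule genes were called (median 0.49; 0 at an unadjusted p below 0.05), and their summed level of 0.6597 to 3.495 CPM overlapped that of wild type, 0.6574 to 1.603. Of the 14 further granule genes, 2 were called higher, Olfm4 by 1.67 and the integrin gene Itgam by 1.52, and 1 lower (0.154% of all genes were), the oxidase gene Cybb, which macrophages also express, by 1.05 (median -0.06). Of the 8 other neutrophil genes, 2 were called higher, Retnlg by 1.91 and Stfa2l1, one of a family of near-identical genes, by 1.70. Ly6g had a log2 fold change of 1.91 (adjusted p = 0.22) and Fpr2 one of -0.95 (adjusted p = 0.0437). Of the 6 transcription factors, Cebpe was called higher (adjusted p = 0.00367), with 13, 11, 14 and 14 reads in S226A lungs and 3, 0, 0 and 1 reads in wild-type lungs, or 0.513 to 0.652 CPM against at most 0.141 CPM. None of the 13 partners was called (0 called, 3 at an unadjusted p below 0.05). The 9 macrophage genes went both ways (3 positive, median -0.12): 1 was called lower, the receptor gene Csf1r by 1.13, and 0 higher. At an adjusted p below 0.05 alone 2 were lower (1.02% of all genes were), Csf1r and Adgre1, and 2 were higher (0.852% were). The latter were the scavenger receptor gene Marco, by 1.01, and Cd5l, a protein secreted by macrophages, by 1.96. Their summed level was 68.58 to 89.48 CPM in S226A against 103.2 to 128.6 CPM, and of the 5 monocyte genes Ccr2 was called lower by 1.39. The part of these cells in the lung values was not tested. Hepatocyte markers summed to 9.731 to 242.4 CPM in S226A lungs and 9.696 to 431.9 in wild-type lungs, so that the groups overlapped.

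In S226A brain 0 of the 10 genes were called (0.0296% of all genes tested were called higher), 6 had an unadjusted p below 0.05 (2.27% of all genes did), and DESeq2 called 2. At an adjusted p below 0.05 alone, both calprotectin genes were higher (0.0592% of all genes were). S100a8 had 2, 11, 7 and 10 reads in the wild-type brains of litters 2972, 2881, 2875 and 2970, or 0.0841, 0.458, 0.246 and 0.370 CPM, and 44, 52, 32 and 28 reads in S226A, or 1.54, 2.03, 1.34 and 1.16 CPM. The log2 fold change was 2.37 ± 0.51 (adjusted p = 0.0155). S100a9 had 39, 25, 17 and 25 reads in wild type and 54, 123, 85 and 66 reads in S226A, or 1.64, 1.04, 0.598 and 0.926 CPM against 1.89, 4.80, 3.55 and 2.73 CPM (1.64 ± 0.36, adjusted p = 0.0244). In both genes the S226A brains all lay above the wild-type brains, as they did in 4 of the 10 genes (1.24% of all genes).

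The other genes of the set had few reads in brain, apart from Mmp9. Ltf had 28, 24, 5 and 21 reads in wild type and 18, 76, 29 and 37 reads in S226A, overlapping groups with a log2 fold change of 1.04. Camp (1.54) and Ltb4r1 (1.48) had an unadjusted p of 0.033 and 0.020 (edgeR) and were not called. Lcn2 had 6, 8, 2 and 5 reads in wild type and 10, 27, 11 and 11 reads in S226A (1.48, adjusted p = 0.244), and Mmp8 had 2, 2, 0 and 2 reads in wild type and 15, 13, 8 and 3 reads in S226A (adjusted p = 0.113). Mmp9, the highest of the 10 genes per kilobase in wild-type brain, had 7.95, 9.32, 9.36 and 9.03 CPM in wild type and 9.87, 8.74, 9.28 and 10.8 CPM in S226A, overlapping groups with a log2 fold change of 0.12 (adjusted p = 1). Without the S226A brain of litter 2972, 1 gene was called, S100a9 with an adjusted p of 0.00898. Erythroid markers summed to 117.7 to 261.5 CPM in S226A brains and 150.0 to 257.0 CPM in wild type, and the part of blood left in the brains was not tested. The 10 genes together had 18.9 ± 3.66 CPM in S226A brain and 12.3 ± 0.951 in wild type (n = 4 each).

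Macrophage markers, which the microglia of the brain share in part, moved in the same S226A brains. Their summed level was 27.18 to 34.61 CPM in S226A and 60.02 to 63.26 CPM in wild type, so that the groups did not overlap. Of the 9 genes, 1 was called lower (0.0947% of all genes were), Csf1r by 1.52, and 1 higher, Marco, with 9 to 38 reads in S226A brains and 0 reads in all wild-type brains. At an adjusted p below 0.05 alone 4 were lower (0.184% of all genes were), Csf1r and the complement genes C1qa by 0.73, C1qb by 0.97 and C1qc by 0.63 on the log2 scale, and Marco was higher. Of the 5 monocyte genes 0 were called (3 at an unadjusted p below 0.05), and their sums overlapped, at 27.93 to 36.46 CPM in S226A and 27.16 to 33.50 CPM in wild type. Of the 14 further granule genes 0 were called (3 at an unadjusted p below 0.05), and Lyz2, the lysozyme gene of macrophages and neutrophils, was higher by 1.17 (adjusted p = 0.0152). The part of these cells in the change of S100a8 and S100a9 was not tested.

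In Y130A embryos 0 of the 10 genes were called in liver, in lung or in brain, where 0.077%, 0% and 0% of all genes were called higher. At an unadjusted p below 0.05 there were 0, 2 and 0 of the 10 genes, against 9.22%, 2.92% and 2.22% of all genes, and DESeq2 called 0, 0 and 0. In liver the log2 fold changes ran from -0.01 (Mmp9) to 0.49 (Chil3), 9 of the 10 were positive, and the median was 0.18. Chil3 had 130, 138, 124 and 163 CPM in the wild-type livers of litters 2848, 2851, 2974 and 3069 and 199, 202, 183 and 198 CPM in Y130A. Of the 10 genes, Chil3 alone had groups that did not overlap there (1.16% of all genes had in this direction), with a log2 fold change of 0.49 ± 0.25 (adjusted p = 0.554). Ltf had 785, 971, 850 and 881 CPM in wild type and 1020, 1050, 1041 and 923 CPM in Y130A, and S100a9 had 1168, 1399, 1096 and 1117 CPM in wild type and 1613, 1448, 1397 and 1333 CPM in Y130A. Both ranges overlapped, and S100a9 had a log2 fold change of 0.28 ± 0.22 (adjusted p = 0.836). Within litters 2848, 2851, 2974 and 3069, the Y130A liver was above its wild-type littermate for 9, 6, 10 and 7 of the 10 genes. These are 4 pairs of livers, whose genes are not replicates, and the count was not made over all genes. The mutant was higher in 4 of 4 litters for Ltf (by 0.0676 to 0.376 on the scale of log2(CPM + 1)), S100a9 (0.0491 to 0.465), Lcn2 (0.0689 to 0.360) and Chil3 (0.279 to 0.611). With litter as a block, 0 genes were called in Y130A liver, and Chil3 had an adjusted p of 0.215 and S100a9 one of 0.610. The sum of the 10 genes was 4779 ± 270 CPM in Y130A and 4065 ± 414 in wild-type liver (n = 4 each).

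In Y130A lung the log2 fold changes lay between -0.45 (Camp) and 0.93 (Chil3). Hepatocyte markers summed to 51.89 to 1216 CPM in the Y130A lungs and 139.9 to 287.9 CPM in their wild-type littermates, and their part was not tested. Chil3 had 2.47, 2.16 and 2.11 CPM in the wild-type lungs of litters 2848, 2851 and 2974 and 3.46, 3.38, 7.04 and 3.36 CPM in the Y130A lungs of the same litters and litter 3069. Again the groups did not overlap (1.61% of all genes in this direction), and the log2 fold change was 0.93 ± 0.34 (adjusted p = 1). With libraries left out in turn it ranged from 0.597 to 1.03. In Y130A brain the log2 fold changes lay between -0.95 (Ltb4r1) and 0.60 (Chil3), all with an adjusted p of 1. The mutant brain was above its wild-type littermate for 1, 8, 4 and 9 of the 10 genes in litters 2848, 2851, 2974 and 3069.

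Since S226A and Y130A embryos came from different litters with libraries of different depth, the effects of the alleles were compared through the difference of the fold changes, each against its own littermates. In liver the S226A effect was larger for all 10 genes, and 4 passed the same limits on p and size, while 0.651% of all genes did so in this direction. These were Lcn2 (difference 1.29 ± 0.18 on the log2 scale, adjusted p = 3.44e-06), Mmp9 (1.29 ± 0.24, adjusted p = 0.000457), Camp (1.24 ± 0.27, adjusted p = 0.00317) and Mmp8 (1.04 ± 0.25, adjusted p = 0.00785). At an adjusted p below 0.05 alone, Ngp (1.15), Chil3 (1.29), S100a8 (0.94) and S100a9 (1.18) passed as well, 8 of 10 against 3.19% of all genes, while Ltf (1.21 ± 0.38, adjusted p = 0.0505) and Ltb4r1 (0.88 ± 0.40, adjusted p = 0.218) did not. With litter as a block, 8 were called, with Chil3 (adjusted p = 0.00104), Ltf (0.00921), Ngp (0.00398) and S100a9 (0.00404) added to the 4. Without the 2 livers with squamous transcripts, 3 were called, Mmp8 having an adjusted p of 0.0123, and 3 were called by DESeq2, where Camp had 0.0805, and with RLE size factors, where Mmp8 had 0.0102. Mmp8 also lost its call when single livers were left out, with an adjusted p between 0.01 and 0.0216 without the S226A liver of litter 2972, 2881 or 2875, the Y130A liver of litter 2848, 2851 or 3069, or the wild-type liver of litter 2875, 2970, 2851 or 3069, and Chil3 gained one without the wild-type liver of litter 2972 (adjusted p = 0.00905).

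In lung the alleles differed in Mmp8 alone by these limits (1.62 ± 0.30, adjusted p = 0.00333; 0.0237% of all genes passed in this direction). S100a9 (1.58, adjusted p = 0.0234) and S100a8 (1.43, adjusted p = 0.031) passed at 0.05 (0.118% of all genes did in this direction), and both were called with litter as a block (adjusted p = 0.00455), which gave 3 genes. Camp (1.69, adjusted p = 0.074) and Mmp9 (1.12, adjusted p = 0.11) did not pass. The call of Mmp8 was lost in a fit of only the lung libraries (adjusted p = 0.0721) and without any 1 of 4 lungs, namely the wild-type lung of litter 2875, the Y130A lung of litter 2851, or the wild-type lungs of litters 2848 and 2974, each leaving 0 genes, while 2 were called without the wild-type lung of litter 2881. In brain 0 genes were called (0% of all genes in this direction), 5 had an unadjusted p below 0.05 (2.29% of all genes did), and DESeq2 called S100a8 (adjusted p = 0.00375).

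The S226A effect itself differed between tissues for 2 of the 10 genes. Lcn2 was raised more in liver than in lung, by 1.49 ± 0.18 on the log2 scale (adjusted p = 2.47e-07; 1.14% of all genes passed in this direction), and Mmp9 more in liver than in brain, by 1.16 ± 0.25 (adjusted p = 0.00305; 0.704% of all genes). These were also the genes with the smallest differences between the corresponding wild-type tissues, a comparison that shares the wild-type libraries. Between lung and brain 0 genes were called (0.0118% of all genes in this direction; 3 of the 10 and 7.13% of all genes at an unadjusted p below 0.05, and 1 of the 10 by DESeq2), with Mmp9 at 1.46 (adjusted p = 0.0119). It was called without the S226A lung of litter 2970 (adjusted p = 0.00896). For Ltb4r1 the difference of 1.28 between liver and lung had an adjusted p of 0.0674, and for Mmp8 the log2 fold change was 0.53 smaller in liver than in lung (SE 0.27, adjusted p = 0.263).

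The wild-type embryos of the 2 sets of litters, which carry no mutation, gave 0 called genes of the 10 in liver, lung and brain, where 0.172%, 0.154% and 0.0651% of all genes were called higher in the Y130A litters and 0.243%, 1.46% and 0.0355% lower. At an unadjusted p below 0.05 there were 2, 2 and 0 of the 10, against 28%, 31.6% and 18.4% of all genes, and DESeq2 called 0, 0 and 0. S100a8 was 0.59 higher on the log2 scale in the wild-type livers of the Y130A litters (adjusted p = 0.044), and Chil3 was 1.21 lower in their wild-type lungs (adjusted p = 0.0128). Chil3 was called without the wild-type lung of litter 2881, at -1.36 (adjusted p = 0.00635). In brain the differences lay between -0.97 (Chil3) and 1.31 (Mmp8), none with an adjusted p below 0.05.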

How the data were processed

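RNA-seq of liver, lung and brain was analysed from the deposited counts, the number of reads per gene as the authors counted them, with no normalization. Per the study's methods and the submitters' processing notes, reads were trimmed with Trim Galore 0.6.5, checked with FastQC 0.11.5, aligned to GRCm38.p6 with STAR 2.6.0b and counted per gene by STAR on GENCODE M19, and the study's own tests used DESeq2. The strand setting of the count is not given in the sources used here.

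Of 20456 genes listed, 20424 matched a symbol in GENCODE M21, which also gave positions and exon lengths, and promoters came from RefSeq. Genes with low counts were removed with edgeR's filterByExpr (minimum count 10, minimum total 15). All 47 libraries and 16892 genes entered a single quasi-likelihood fit with TMM factors and a term for each of the 12 groups (edgeR 4.0.16, R 4.3.3), and p-values were adjusted over all genes by the Benjamini-Hochberg method. A call needed an adjusted p below 0.01, a log2 fold change beyond 1 and, except for differences between effects, a standard error below 1, taken from the log2 fold change and its F value. CPM are TMM-scaled counts, and a pseudocount of 1 was added where log2(CPM + 1) is given.

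The 10 genes, the gene lists and the tests were chosen with earlier results of these data known. Apart from the 10 genes and Daxx, genes named from a list were taken from the 4 with the largest changes in the S226A tissue described, and the 8 genes most like the 10 over the livers were named. Chil4, as a near copy of Chil3, Cxcl12 in liver, for its groups, and Adgre1 in lung and C1qa and C1qc in brain, for their adjusted p, were named in addition after their values were seen. Litter numbers in the labels pair mutant and wild-type embryos: 18 of 23 littermate pairs had residuals correlated above 0.1 (median 0.213), against 5 of 69 other pairs. The litters are the replicates, each embryo giving 1 library per tissue, and litter 2970 gave wild-type lung from another embryo than wild-type liver and brain. For transposable elements in S226A lung, the study named a possible outlier among the wild-type lungs. Its label has this embryo number and the digits of this litter number in another order. Whether it is the same library was not settled here, and this lung was among the libraries left out in turn. No library was a copy of another (lowest chi-square per degree of freedom 4.09 over 69 replicate pairs). On simulated counts of 16818 genes, 198 of 200 genes changed 4-fold were called in the S226A liver comparison and 0 others, 190 of 200 in the S226A minus Y130A comparison and 3 others, and in brain 6 of the 10 neutrophil genes when all were raised 4-fold. The 200 genes were drawn from those with more reads in liver, and no litter effect was simulated. The largest change of the 10 genes in S226A liver was 3.44-fold, so that recovery of changes of that size was not simulated.

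Alternatives were DESeq2 1.42.0, RLE size factors, no filter, only the libraries compared, litter as a block, calls without the limit on the standard error, calls by an adjusted p below 0.05 alone, CPM without TMM factors, Spearman's correlation for likeness, and leaving out each library. Leaving out the 2 livers with squamous transcripts was chosen after seeing the data. Tables were handled with pandas 2.3.3 in Python 3.11.15 and drawn with matplotlib 3.10.9. The lung library that the authors left out, transposable elements and the proteins of the 10 genes were not analysed here.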

Additional observations from a re-analysis of the deposited data

Results flagged for a closer look

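In 5 of 110 groups of 4 values examined, 1 library stood apart from the other 3 by more than Dixon's 95% limit for the ratio of gap to range, and chance gives about 1 group in 20. Camp had 3.37 CPM in the wild-type lung of litter 2881, the highest of its group. Chil3 had 7.04 CPM in the Y130A lung of litter 2974, Lcn2 had 1.05 CPM in the S226A brain of litter 2881, and S100a9 had 1.88 CPM in the wild-type brain of litter 2848, each the highest of its group. Mmp8 had 0 CPM in the wild-type brain of litter 2875, the lowest of its group, where the other brains had 2 reads each.

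The test of the difference between effects was passed by 5 values between the alleles and 2 between tissues. In liver the S226A effect exceeded the Y130A effect by 1.24 for Camp, 1.29 for Lcn2, 1.04 for Mmp8 and 1.29 for Mmp9, and in lung by 1.62 for Mmp8. The S226A effect on Lcn2 was larger in liver than in lung by 1.49, and that on Mmp9 larger in liver than in brain by 1.16 (log2 scale throughout).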

How the results depend on the processing

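The 9 genes called in S226A liver, the 0 called in Y130A and the 10 called between wild-type tissues moved by less than 1.5 times under every alternative and every left-out library. In S226A lung 4 genes became 0 with only the libraries compared, 7 by adjusted p alone and 4 to 7 with libraries left out. In S226A brain DESeq2 and adjusted p alone gave 2, and left-out libraries 0 to 1. For the S226A minus Y130A effect in liver, litter as replicate block, adjusted p alone and a fit of only the libraries compared each gave 8, in lung 3, 3 and 0 (0 to 2 with libraries left out), and in brain DESeq2 gave 1. For lung minus brain, DESeq2 and adjusted p alone gave 1 (0 to 1 with libraries left out). Between wild-type sets, adjusted p alone gave 1 in liver and 1 in lung (0 to 1 with libraries left out). Besides these counts and the 6 genes called in S226A lung, the block changed no other call.

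The sign of values near 0 turned: Lcn2 in S226A lung was -0.0213 with RLE size factors, -0.0060 without the filter, -0.0212 with DESeq2, -0.0095 with only the libraries compared and -0.0507 to 0.0562 with libraries left out, and Mmp9 in Y130A liver was 0.0607 without the 2 livers with squamous transcripts and -0.136 to 0.0821 with libraries left out. With libraries left out, Chil3 ranged from -0.952 (without the S226A brain of litter 2881) to 1.58 in S226A brain and from -0.0438 (without the Y130A brain of litter 3069) to 0.921 in Y130A brain. The cause was not tested, beyond the fewer libraries of each such fit. In brain, few reads limit all genes but Mmp9 and S100a9.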
